A study of Arabidopsis thaliana with 6 samples.

Results

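The 3 Arabidopsis thaliana leaf libraries numbered 2 were set against the 3 numbered 1, each within its own group, so that the comparison takes in all 6 libraries of the series. Every group holds 1 library of each number. FLV border is the white border of young rosette leaves of the T-DNA line salk_139995, a mutant of FLV, also called DOT4. WT border is the green border of Col-0 wild-type leaves, and WT center is the middle of Col-0 leaves. All plants were untreated, grew on soil at 18 to 21 °C under 0 to 90 µE of light and were sampled at Boyes stage 1.13. The numbers come from the sample titles. The labels give no time of harvest, no pooling of plants and no batch, and nothing in them says that libraries of 1 number were collected or prepared together. The p-values below therefore measure the spread between these libraries only, which may be technical.

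The circadian clock of plants is a loop of transcription factors that follow each other through the day. CCA1 and LHY peak around dawn, the pseudo-response regulators PRR9, PRR7 and PRR5 follow in turn, and TOC1 and the evening complex of LUX, ELF3 and ELF4 peak around dusk, each class repressing others. In leaves the clock and light together set the daily course of many transcripts, among them those of the light-harvesting chlorophyll-binding proteins, of chlorophyll synthesis and of starch use.

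The libraries numbered 2 held 28610392 (FLV border), 25257893 (WT border) and 33214552 counts (WT center), and those numbered 1 held 28674853, 28532514 and 20448315 counts in the same groups. Levels are CPM, counts per 1e6 of the library size scaled by TMM, which removes shifts shared by most genes. Small nucleolar, spliceosomal and other short RNAs made up a lower share of the counts in library 2 of every group: 6.14% in library 2 against 9.98% in library 1 for FLV border, 3.42% against 4.59% for WT border, and 2.2% against 17.3% for WT center. The last value sets library 1 of WT center apart from the other 5, and it also had the lowest share of mapped reads, 70.9%. The part of this composition in the differences below was not tested. DOT4 (AT4G18750), the gene of the mutant line, had 616 and 502 counts in libraries 2 and 1 labelled FLV border, against 52 and 18 for WT border, and 6 and 5 for WT center. The transcript was thus more abundant in the libraries labelled as mutant. Where the insertion lies relative to the counted reads is not given in the sources used here, and no direction below is drawn from the mutant label.

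Genes of the clock and of light harvesting were among those that differed between the numbers. COR27, PRR7, the 4 LNK genes, RVE2 and the major light-harvesting genes each differed by several fold, in the same direction, in all 3 groups. In the edgeR quasi-likelihood fit with the group as a block, none of the 21852 genes tested passed an adjusted p of 0.05 (0 genes, 0%), and the smallest adjusted p was 0.0848. The fit had 2 residual degrees of freedom. At an unadjusted p under 0.05 it held 1495 genes (6.84%), 687 of them higher and 808 lower in library 2. DESeq2 called 182 genes higher (0.833% of the genes tested) and 175 lower (0.801%), while limma-voom called 0. No gene below is therefore given as changed, and the values stand as differences between these libraries. Without the WT center libraries edgeR called 69 genes higher and 65 lower in library 2 at an adjusted p of 0.05, without those of FLV border 75 and 32, and without those of WT border 4 and 5. In bulk tissue, fewer cells of a type and less RNA per cell cannot be told apart.

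A fold within a group was taken from log2(CPM + 1), which understates the differences of low genes. By that measure 108 genes were at least 2-fold higher in library 2 in every group (0.494%) and 81 at least 2-fold lower (0.371%). Of these 189 genes, 179 were among the 357 that DESeq2 called. The 108 comprised 107 nuclear protein-coding genes and 1 plastid gene. The 81 comprised 75 protein-coding genes, 2 long non-coding RNAs, 3 small nucleolar RNAs and 1 small nuclear RNA, all nuclear. With no minimum size, 3279 genes (15%) were higher and 3373 (15.4%) lower in library 2 in all 3 groups. The counts of list members below that were higher or lower in all 3 groups stand beside these shares, and a departure from them was not tested. For some genes below it is also said that the libraries of the 2 numbers did not overlap. The share of all genes for which this held is not given, and many named genes were taken by smallest p, which favours such a gap. A lack of overlap is thus given only to describe the values and is no result about these genes. Of 381 tested members of 25 gene lists, 41 were among the 108 and 14 among the 81, so that 67 genes of each set are in no list.

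The promoters of 6 clock genes from both directions are shown because evening-phased clock genes are known for a 9-base evening element to which CCA1 and LHY bind, and many genes controlled by light for a G-box. Each window runs from 250 bases before to 50 bases after the annotated transcript start, in the RefSeq annotation of build TAIR10.1, 5′ to 3′ on the strand of the gene. Capitals mark the evening element (AAAATATCT) and the G-box (CACGTG) on either strand. Another motif that was searched, the CCA1 binding site (AAAAATCT), is in none of these 6 windows. LUX, BOA and TOC1 were lower in library 2 in every group, and PRR9, PRR7 and LNK3 were higher. All 6 windows shown hold a motif, which is not so for every clock gene. The windows of ELF4, also lower in every group, and of GI and LNK4, both higher, held none of the searched motifs.
BOA, chr5:24003638-24003937, plus strand: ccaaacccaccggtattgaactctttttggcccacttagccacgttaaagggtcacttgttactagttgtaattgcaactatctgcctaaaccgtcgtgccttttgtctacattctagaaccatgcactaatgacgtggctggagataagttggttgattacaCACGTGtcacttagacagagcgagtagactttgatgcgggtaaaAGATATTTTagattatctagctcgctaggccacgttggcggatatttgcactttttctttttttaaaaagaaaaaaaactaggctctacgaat
LUX, chr3:17182792-17183091, plus strand: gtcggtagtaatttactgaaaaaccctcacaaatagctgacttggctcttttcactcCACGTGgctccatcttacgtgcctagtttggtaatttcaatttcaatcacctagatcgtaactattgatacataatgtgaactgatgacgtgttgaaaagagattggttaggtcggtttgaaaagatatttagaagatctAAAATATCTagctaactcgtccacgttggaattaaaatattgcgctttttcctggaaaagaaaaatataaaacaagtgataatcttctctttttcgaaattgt
TOC1, chr5:24674713-24675012, plus strand: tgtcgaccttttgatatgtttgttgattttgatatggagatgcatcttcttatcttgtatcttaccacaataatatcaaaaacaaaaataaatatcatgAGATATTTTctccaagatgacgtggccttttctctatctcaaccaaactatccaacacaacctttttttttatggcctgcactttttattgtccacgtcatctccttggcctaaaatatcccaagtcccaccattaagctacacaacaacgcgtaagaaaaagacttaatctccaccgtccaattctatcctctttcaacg
PRR9, chr2:19232357-19232656, plus strand: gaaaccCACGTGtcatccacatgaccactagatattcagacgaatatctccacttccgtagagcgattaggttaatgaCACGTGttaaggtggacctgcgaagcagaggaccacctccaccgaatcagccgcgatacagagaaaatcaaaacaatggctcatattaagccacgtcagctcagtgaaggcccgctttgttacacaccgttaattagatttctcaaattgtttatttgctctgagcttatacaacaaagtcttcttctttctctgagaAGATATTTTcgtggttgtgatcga
PRR7, chr5:641981-642280, minus strand: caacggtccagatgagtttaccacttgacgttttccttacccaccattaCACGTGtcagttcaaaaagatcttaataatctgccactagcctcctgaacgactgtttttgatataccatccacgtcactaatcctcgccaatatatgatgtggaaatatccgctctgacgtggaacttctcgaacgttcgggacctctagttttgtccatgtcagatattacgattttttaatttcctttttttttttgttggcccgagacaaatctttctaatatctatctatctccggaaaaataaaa
LNK3, chr3:3923265-3923564, plus strand: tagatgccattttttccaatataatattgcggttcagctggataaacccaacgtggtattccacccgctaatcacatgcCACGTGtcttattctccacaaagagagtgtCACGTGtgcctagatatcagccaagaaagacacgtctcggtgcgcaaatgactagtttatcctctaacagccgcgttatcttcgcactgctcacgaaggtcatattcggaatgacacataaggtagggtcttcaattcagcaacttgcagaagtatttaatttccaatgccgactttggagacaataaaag
The evening element of BOA begins 43 bases before the start, that of LUX 53 and that of TOC1 151 bases before it. PRR9 has an evening element 26 bases after the start, and PRR5 and RVE7, also higher in library 2 in every group, have this motif too. It thus occurs in genes of both directions. Over larger sets, the evening element was in 3.02% of 19706 promoters of tested protein-coding genes. It was in 12 of 107 promoters of the genes at least 2-fold higher in every group (11.2%) and in 8 of 75 of those at least 2-fold lower (10.7%). The G-box was in 8.66% of all these promoters, in 15.0% of the 2-fold higher and in 18.7% of the 2-fold lower ones. The shares for the CCA1 binding site were 8.16% of all, 12.1% of the higher and 8% of the lower set. Of the 28 genes of the morning, day and evening lists, 7 had an evening element (25.0%) and 12 a G-box (42.9%). A match is a match of letters in this window and does not show that a protein binds there.

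Of the 15 genes of the morning list, 8 were higher in library 2 in all 3 groups, 2 were lower and 5 did not keep a direction. At least 2-fold in every group were 6 of them upward and 1 downward. The median log2 difference of the list was 1.3, against -0.000711 over all genes tested. None passed the edgeR test, 9 had an unadjusted p under 0.05, and DESeq2 called 7 higher and 1 lower.

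The LNK proteins are coactivators that join the RVE8 family of Myb factors, and all 4 LNK genes were higher in library 2 of every group. LNK1 (AT5G64170) had 13.1 CPM in library 2 against 1.8 CPM in library 1 for FLV border, 8.79 against 1.0 for WT border, and 4.26 against 0.444 for WT center. LNK2 (AT3G54500) had 32.2 (FLV border), 32.5 (WT border) and 7.42 CPM (WT center) in library 2, against 1.63, 2.55 and 1.07 CPM in library 1 of the same groups. The highest library 1 of either gene lay below its lowest library 2. LNK3 (AT3G12320), whose promoter holds a pair of G-boxes, had 7.5 CPM in library 2 against 0.49 CPM in library 1 for FLV border, 9.21 against 0.831 for WT border, and 8.79 against 0.533 for WT center. LNK4 (AT5G06980) had 11.5 (FLV border), 13.6 (WT border) and 11.9 CPM (WT center) in library 2, against 0.939, 0.344 and 1.42 CPM in library 1 of the same groups. For these 2 genes as well no library 1 reached any library 2. The log2 differences of the 4 were 3.06 ± 0.42, 3.65 ± 0.44, 3.79 ± 0.44 and 3.95 ± 0.55 (SE of the edgeR fit, adjusted p 0.161, 0.118, 0.104 and 0.161).

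CCA1 (AT2G46830), a dawn repressor of evening genes, had 5.1 CPM in library 2 against 0.204 CPM in library 1 for FLV border, 4.38 against 0.172 for WT border, and 0.893 against 0.533 for WT center. Its border libraries differed by over 4 on the CPM scale and its WT center libraries by far less. All library 1 values were below all library 2 values, but library 1 held only 10 (FLV border), 6 (WT border) and 6 counts (WT center). Library 2 of WT center held 13 counts, so the difference there rests on few reads. LHY (AT1G01060), its closest relative, had 2.53 (FLV border), 1.49 (WT border) and 1.58 CPM (WT center) in library 2, against 0.776, 0.516 and 1.07 CPM in library 1 of the same groups. LHY was higher in library 2 within each group by a smaller ratio than CCA1 in both borders. Library 1 of LHY held 38 (FLV border), 18 (WT border) and 12 counts (WT center), the last against 23 counts in library 2. Log2 differences were 3.57 ± 0.93 for CCA1 and 1.3 ± 0.55 for LHY, with adjusted p of 0.456 and 0.729 in the edgeR fit.

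PRR9 (AT2G46790), the earliest of the pseudo-response regulators, had 3.94 CPM in library 2 against 0.184 CPM in library 1 for FLV border, 3.61 against 0.0287 for WT border, and 3.3 against 0.533 for WT center. Its 3 libraries numbered 2 lay close together, and those numbered 1 were near the limit of detection, with 9, 1 and 6 counts. RVE7 (AT1G18330), a Myb factor of the CCA1 family also known as EPR1, had 12.1 (FLV border), 9.63 (WT border) and 3.98 CPM (WT center) in library 2, against 2.22, 1.29 and 0.178 CPM in library 1 of the same groups. RVE2 (AT5G37260), known as CIRCADIAN 1, went the other way, with 1.44 CPM in library 2 against 13.8 CPM in library 1 for FLV border, 1.7 against 60.9 for WT border, and 0.481 against 43.7 for WT center. Its ratio was largest in WT center and smallest in FLV border, and the groups of libraries did not overlap. PRR9 differed by log2 4.34 ± 0.83, RVE7 by 3.01 ± 0.50 and RVE2 by -4.85 ± 0.67, with adjusted p of 0.274, 0.194 and 0.161 in the edgeR fit.

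The remaining members of the morning list did not keep a direction or differed little. RVE8 (AT3G09600), an activator of evening genes, had 2.95 (FLV border), 2.43 (WT border) and 0.481 CPM (WT center) in library 2, against 0.429, 1.52 and 2.31 CPM in library 1 of the same groups. RVE4 (AT5G02840), which acts beside it, had 19.8 CPM in library 2 against 9.53 CPM in library 1 for FLV border, 15.6 against 14.2 for WT border, and 13.3 against 76.7 for WT center, and RVE1 (AT5G17300), a Myb factor that promotes auxin production, had 5.12 (FLV border), 3.2 (WT border) and 1.99 CPM (WT center) in library 2, against 1.41, 4.01 and 11 CPM in library 1 of the same groups. All 3 were higher in library 2 of FLV border and lower in library 2 of WT center, where RVE4 of library 1 was the highest of the 6 values. LWD1 and LWD2, related WD-repeat proteins that act as coactivators, differed by log2 -0.04 and -0.33 in the fit, and AT5G52660 by 0.45.

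**Figure D1:**
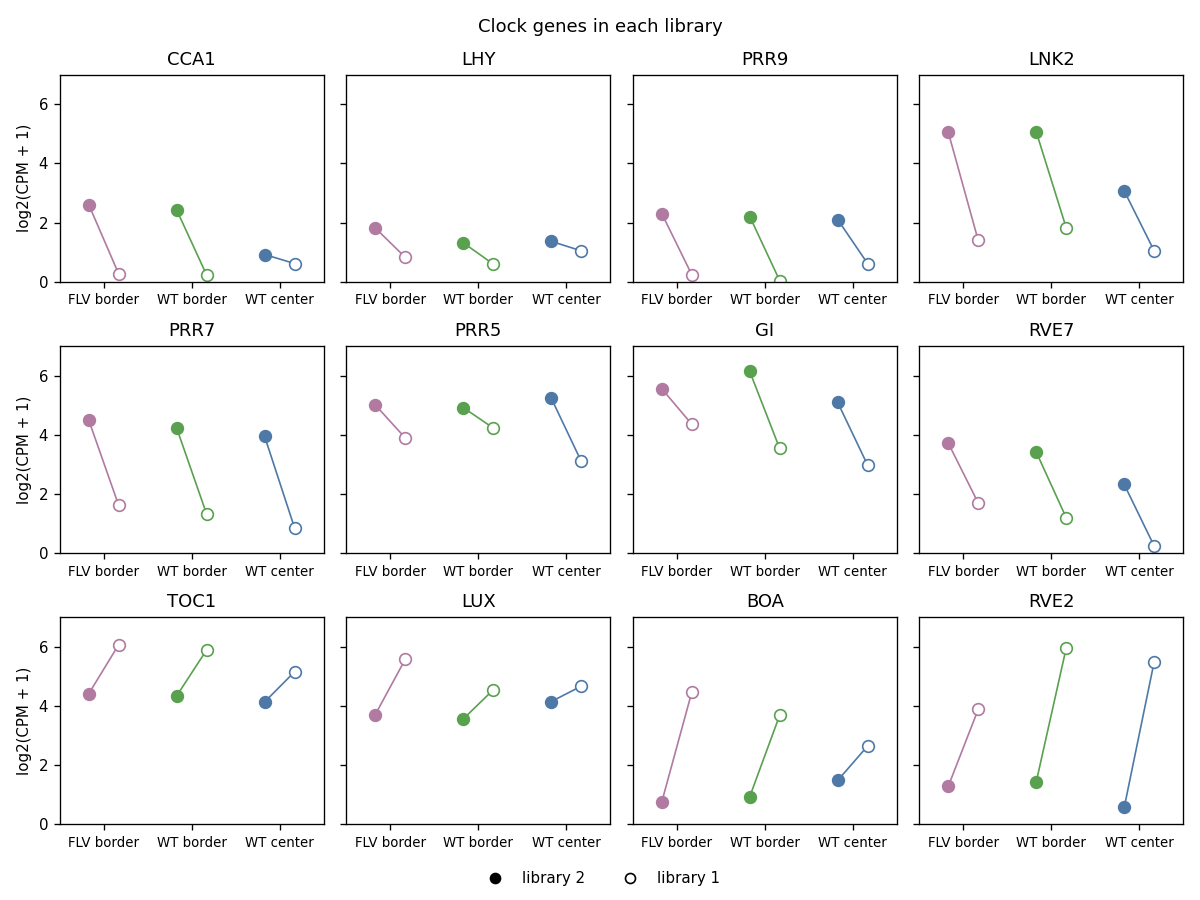
Level of 12 clock genes in each library, as log2(CPM + 1), with library 2 (filled) left of library 1 (open) in each group; lines join the libraries of a group. The first 8 panels, CCA1 to RVE7, have library 2 above library 1 in all 3 groups, and TOC1, LUX, BOA and RVE2 have it below.

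The day list holds regulators that act between the dawn and dusk factors. Of its 7 genes, 3 were higher in library 2 in all 3 groups, 2 of them at least 2-fold in each, and none was lower in all 3. The median log2 difference was 0.42. None passed edgeR, 3 had an unadjusted p under 0.05 and DESeq2 called 2 higher. PRR7 (AT5G02810) had 21.5 CPM in library 2 against 2.06 CPM in library 1 for FLV border, 17.7 against 1.49 for WT border, and 14.4 against 0.8 for WT center. From log2(CPM + 1) the log2 ratio was 2.88 in FLV border, 2.90 in WT border and 3.09 in WT center. The added 1 lowers the ratio most in WT center, where library 1 held 9 counts. GI (AT1G22770), which stabilises the F-box protein ZTL and promotes CO expression, had 45.9 (FLV border), 69.5 (WT border) and 33.1 CPM (WT center) in library 2, against 19.5, 10.6 and 6.84 CPM in library 1 of the same groups. PRR5 (AT5G24470) had 31.1 CPM in library 2 against 13.9 CPM in library 1 for FLV border, 29.2 against 17.7 for WT border, and 36.8 against 7.64 for WT center. For PRR7, GI and PRR5 all 3 libraries numbered 2 lay above all 3 numbered 1. The log2 differences were 3.66 ± 0.40 (adjusted p 0.0999), 2.07 ± 0.42 (0.285) and 1.37 ± 0.41 (0.546) by edgeR. Over the alternatives the adjusted p of PRR7 was from 8.72e-12, with DESeq2, to 0.343.

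The other 4 members were mixed. FKF1 (AT1G68050), a blue-light receptor of the afternoon that works with GI, had 13.7 (FLV border), 12.3 (WT border) and 17.7 CPM (WT center) in library 2, against 27.4, 32.1 and 8.26 CPM in library 1 of the same groups. FKF1 was thus lower in library 2 in both borders and higher in WT center. ZTL (AT5G57360) had 19.8 CPM in library 2 against 16.8 CPM in library 1 for FLV border, 20.3 against 21.2 for WT border, and 53.2 against 25 for WT center, so that only the WT center libraries differed by over 2-fold on the CPM scale. LKP2 and PRR3 differed by log2 0.39 and -0.73 in the fit.

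None of the 6 genes of the evening list was higher in library 2 in all 3 groups, 4 were lower, and 2 of these were at least 2-fold lower in each. The median log2 difference was -1.17. None passed edgeR, 3 had an unadjusted p under 0.05 and DESeq2 called 2 lower. TOC1 (AT5G61380), the dusk repressor of the morning genes, had 20.3 (FLV border), 19.3 (WT border) and 16.6 CPM (WT center) in library 2, against 66.1, 58.4 and 34.6 CPM in library 1 of the same groups. The libraries numbered 2 lay at 16.6 to 20.3 CPM and those numbered 1 at 34.6 to 66.1 CPM, with no overlap. BOA (AT5G59570), a close relative of LUX, had 0.687 CPM in library 2 against 20.9 CPM in library 1 for FLV border, 0.903 against 11.8 for WT border, and 1.79 against 5.24 for WT center. LUX (AT3G46640), the DNA-binding part of the evening complex, had 12.1 (FLV border), 10.8 (WT border) and 16.7 CPM (WT center) in library 2, against 46.6, 22.2 and 24.3 CPM in library 1 of the same groups. BOA and LUX showed the same order of groups, with the largest ratio in FLV border and the smallest in WT center. TOC1, BOA and LUX differed by log2 -1.46 ± 0.35, -3.45 ± 0.70 and -1.18 ± 0.39, with adjusted p of 0.402, 0.293 and 0.61 in the edgeR fit. ELF4 (AT2G40080), an adaptor of the evening complex, had 2.1 CPM in library 2 against 8.69 CPM in library 1 for FLV border, 0.521 against 1.09 for WT border, and 1.51 against 1.78 for WT center, lower in library 2 within each group. ELF3, the scaffold of that complex, differed by log2 -0.23 ± 0.36, and its libraries of the 2 borders were nearly level. CHE (AT5G08330), a repressor of CCA1, was at 34.5 (FLV border), 61.3 (WT border) and 228 CPM (WT center) in library 2, against 40.7, 47.9 and 22 CPM in library 1 of the same groups, so that its direction was not shared and WT center library 2 stood above the others.

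Clock outputs followed in both directions. Of 21 tested members of the output list, 13 were higher in library 2 in all 3 groups and 4 lower, 5 and 2 of them at least 2-fold in each; FT was not tested for low counts. The median log2 difference was 1.08, 12 members had an unadjusted p under 0.05, none passed edgeR, and DESeq2 called 7 higher and 2 lower. COR27 (AT5G42900), a small nuclear protein that responds to cold and blue light and represses PRR5 and TOC1, had 1.37 CPM in library 2 against 25.7 CPM in library 1 for FLV border, 0.903 against 28.9 for WT border, and 1.31 against 39.6 for WT center. The highest library 2 was at 1.37 CPM and the lowest library 1 at 25.7 CPM, and this gene shared the smallest adjusted p of the fit. Its log2 difference was -4.7 ± 0.40, with an adjusted p of 0.0848 by edgeR and a range over the alternatives from 2.86e-20, with DESeq2, to 0.216. COL9 (AT3G07650), a CONSTANS-like repressor of flowering, had 10.2 (FLV border), 10.11 (WT border) and 4.53 CPM (WT center) in library 2, against 48.8, 66.3 and 93.9 CPM in library 1 of the same groups. CDF3 (AT3G47500), a Dof factor that represses CO, had 37.1 CPM in library 2 against 7.08 CPM in library 1 for FLV border, 39.5 against 2.52 for WT border, and 17.3 against 3.11 for WT center. BBX29 (AT5G54470), a B-box protein, had 2.79 (FLV border), 1.74 (WT border) and 3.23 CPM (WT center) in library 2, against 0.224, 0.086 and 0.267 CPM in library 1 of the same groups. The log2 differences of COL9, CDF3 and BBX29 were -3.08 ± 0.51, 2.94 ± 0.45 and 3.8 ± 0.60, with adjusted p of 0.194, 0.169 and 0.169 by edgeR, and in each gene the libraries of the 2 numbers did not overlap. For BBX29 the libraries numbered 1 held only 11 (FLV border), 3 (WT border) and 3 counts (WT center). JMJD5 (AT3G20810), a jumonji-domain protein that takes part in the clock and is outside the lists, had 1.11 CPM in library 2 against 27.2 CPM in library 1 for FLV border, 0.208 against 46.5 for WT border, and 1.37 against 23.5 for WT center. It was lower in library 2 of every group, with a log2 difference of -5.28 ± 0.75 (edgeR adjusted p 0.169).

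**Figure D2:**
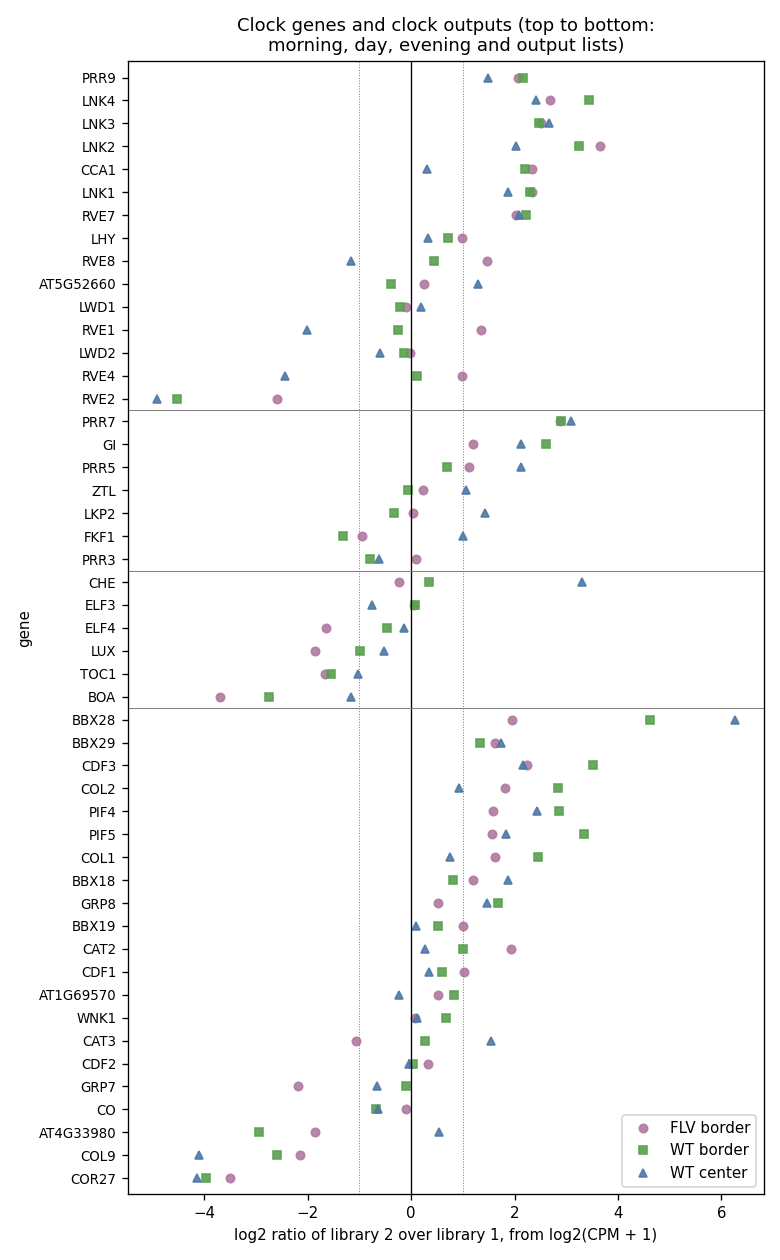
Log2 ratio of library 2 over library 1, from log2(CPM + 1), for the 49 tested genes of the 4 clock lists, with 1 symbol per group; dotted lines mark a 2-fold difference, and lists are separated by grey lines. PRR7 and the LNK genes lie right of the upper dotted line in every group, COR27, COL9, RVE2, BOA and TOC1 left of the lower one, and RVE1, RVE4 and RVE8 spread over both sides.

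Light-harvesting genes made up the list with the largest median log2 difference, 2.74 over 22 genes. Of these, 17 were higher in library 2 in all 3 groups, 14 at least 2-fold in each, and none was lower in all 3. None passed edgeR, 16 had an unadjusted p under 0.05, and DESeq2 called 14 higher. LHCB1 and LHCB2 proteins form the trimeric antenna of photosystem II, and their near-identical genes share reads, so that single members are uncertain. LHCB1.1 (AT1G29920) had 2143 (FLV border), 6816 (WT border) and 20255 CPM (WT center) in library 2, against 75.1, 426 and 201 CPM in library 1 of the same groups. LHCB2.1 (AT2G05100) had 1180.1 CPM in library 2 against 66.3 CPM in library 1 for FLV border, 3881 against 235 for WT border, and 17870.0 against 129 for WT center. LHCB2.3 (AT3G27690) had 126 (FLV border), 762 (WT border) and 2946 CPM (WT center) in library 2, against 5.57, 21.1 and 9.95 CPM in library 1 of the same groups. In all 3 genes every library 2 exceeded library 1 of its own group, the difference was largest in WT center, and FLV border library 2 was the lowest of the libraries numbered 2. LHCB1.4 (AT2G34430) had 688 CPM in library 2 against 37.3 CPM in library 1 for FLV border, 3138 against 158 for WT border, and 23251 against 242 for WT center. By edgeR the log2 difference was 5.14 ± 0.77 for LHCB1.1 (adjusted p 0.169), 5.02 ± 0.85 for LHCB2.1 (0.205), 5.85 ± 0.89 for LHCB2.3 (0.169) and 5.0 ± 0.75 for LHCB1.4 (0.169). Over the alternatives the adjusted p of LHCB2.3 was from 1.5e-18, with DESeq2, to 0.996. The list summed to 23814 (FLV border), 88684 (WT border) and 347450.0 CPM (WT center) in library 2, against 5922, 25835 and 22781 CPM in library 1 of the same groups. WT center library 1 is the one with 17.3% short RNA. Library 1 also had the higher share of short RNA in both borders, 9.98% against 6.14% for FLV border and 4.59% against 3.42% for WT border. The part of this composition in the sums was not tested. The monomeric antenna proteins LHCB5 and LHCB6 and the photosystem I antenna proteins LHCA1, LHCA3 and LHCA4 were also among the 14. The 5 without a shared direction were LHCA5, LHCA6, LHCB4.3, LHCB7 and PSBS, of which PSBS, the sensor of energy dissipation, differed by log2 0.08 in the fit.

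**Figure D3:**
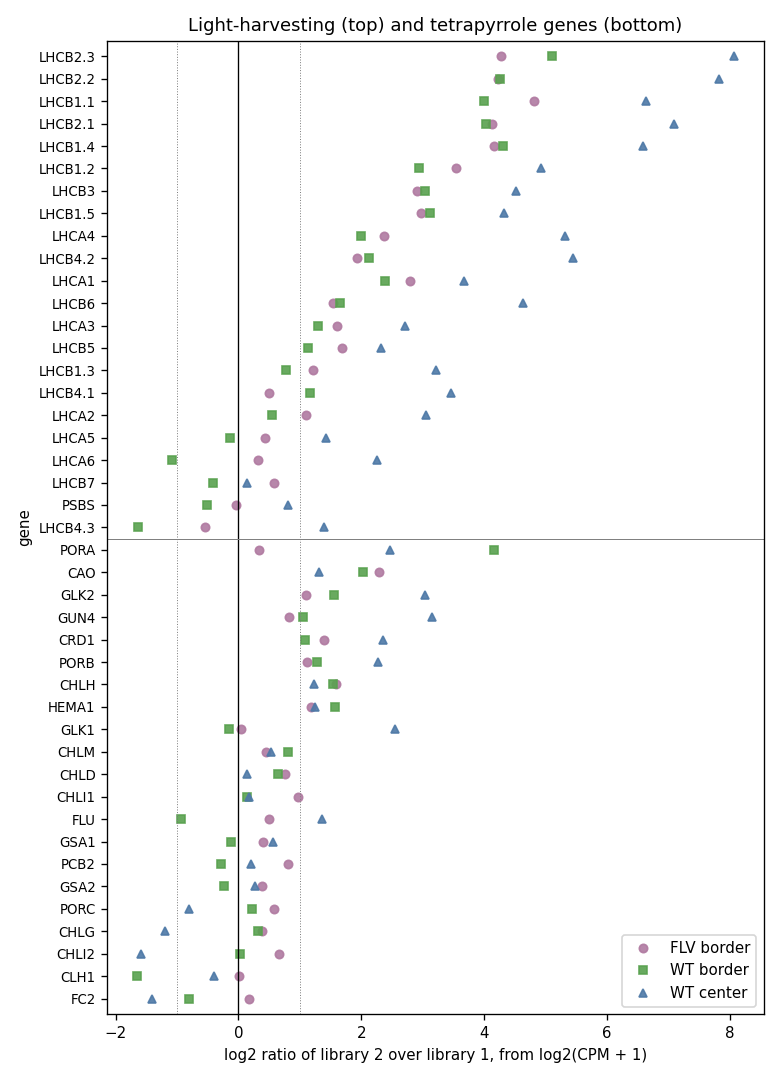
Log2 ratio of library 2 over library 1, from log2(CPM + 1), for 22 light-harvesting genes and 21 genes of tetrapyrrole synthesis, with 1 symbol per group and dotted lines at a 2-fold difference. LHCB2.3, LHCB2.2, LHCB1.1, LHCB2.1 and LHCB1.4 lie furthest right, most so in WT center, and 14 light-harvesting genes are past the upper dotted line in all 3 groups.

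Nuclear genes of the photosystem cores had smaller differences. Of 29, 22 were higher in library 2 in all 3 groups and none was lower, but 1 was at least 2-fold higher in each, and the median log2 difference was 1.13. None passed edgeR, 11 had an unadjusted p under 0.05 and DESeq2 called 3 higher. PSAD-2 (AT1G03130), a stromal subunit of photosystem I, had 37.1 CPM in library 2 against 8.45 CPM in library 1 for FLV border, 568 against 161 for WT border, and 1154 against 165 for WT center, a log2 difference of 2.25 ± 0.43 (edgeR adjusted p 0.275). PSAO, another subunit of photosystem I, and PSBQ-2, of the oxygen-evolving complex, differed by 1.41 ± 0.48 and 1.29 ± 0.44. Calvin-Benson genes showed no common direction, with 6 of 18 higher and 2 lower in all 3 groups and none at least 2-fold in each. CP12-2 (AT3G62410), a regulator of that cycle in the dark, had 27.1 (FLV border), 58.5 (WT border) and 203 CPM (WT center) in library 2, against 34, 197 and 304 CPM in library 1 of the same groups. In the plastid genome itself the median log2 ratio of library 2 over library 1 was 0.999 in FLV border, 0.307 in WT border and -1.27 in WT center. The summed CPM of the plastid genes was higher in library 2 of every group, but it depends on the TMM factor. In WT center that factor was 0.439 in library 2 and 0.551 in library 1. As a share of all counts, plastid genes were lower in library 2 of WT center, at 38.5% against 41.9%. In the borders this share was higher in library 2, at 24.2% against 12.8% for FLV border and 31.4% against 24.2% for WT border.

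In tetrapyrrole synthesis, which makes chlorophyll and heme, 11 of 21 genes were higher in library 2 in all 3 groups, none was lower, and 6 were at least 2-fold higher in each. The median log2 difference was 0.52, none passed edgeR, 8 had an unadjusted p under 0.05 and DESeq2 called 7 higher. CAO (AT1G44446), which makes chlorophyll b, had 45.6 CPM in library 2 against 8.49 CPM in library 1 for FLV border, 124 against 29.7 for WT border, and 52.7 against 20.5 for WT center. HEMA1 (AT1G58290), the regulated first enzyme of the pathway, had 129 (FLV border), 318 (WT border) and 82.6 CPM (WT center) in library 2, against 56.5, 106 and 34 CPM in library 1 of the same groups. CAO was higher in every library 2 than in any library 1, while HEMA1 of WT border library 1 exceeded that of WT center library 2. GLK2 (AT5G44190), a factor that switches on chloroplast genes, had 53.8 CPM in library 2 against 24.5 CPM in library 1 for FLV border, 111 against 37 for WT border, and 352 against 41.7 for WT center, with its largest ratio in WT center. The log2 differences were 1.95 ± 0.38, 1.35 ± 0.37 and 1.92 ± 0.49, with adjusted p of 0.275, 0.498 and 0.452 by edgeR. PORA (AT5G54190), a protochlorophyllide oxidoreductase known from dark-grown seedlings, had 1.17 (FLV border), 36 (WT border) and 6.04 CPM (WT center) in library 2, against 0.714, 1.06 and 0.267 CPM in library 1 of the same groups, with the libraries of FLV border almost level.

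Among genes of light signalling, 8 of 24 tested were higher in library 2 in all 3 groups, 2 were lower and 14 had no shared direction; FHL was not tested. Of the 8, 3 were at least 2-fold higher in each group, and the median log2 difference was 0.48. None passed edgeR, 7 had an unadjusted p under 0.05 and DESeq2 called 3 higher. The 3 are B-box proteins that act around HY5 in the response to light. BBX24 (AT1G06040) had 44.8 CPM in library 2 against 14.6 CPM in library 1 for FLV border, 65.7 against 21.3 for WT border, and 129 against 11.6 for WT center. BBX25 (AT2G31380) had 27.4 (FLV border), 19.8 (WT border) and 26 CPM (WT center) in library 2, against 3.55, 7.91 and 8.35 CPM in library 1 of the same groups. BBX22 (AT1G78600) had 21.3 CPM in library 2 against 9.9 CPM in library 1 for FLV border, 20.7 against 7.86 for WT border, and 19.6 against 2.31 for WT center. In BBX25 and BBX22 no library 1 reached a library 2, and in BBX24 library 1 of WT border, the highest of its number, was still below every library 2. SPA1 (AT2G46340), a partner of COP1 that removes light-signalling factors, had 36 (FLV border), 31.5 (WT border) and 14.4 CPM (WT center) in library 2, against 10.7, 15.6 and 5.6 CPM in library 1 of the same groups, a log2 difference of 1.38 ± 0.34. Of the growth genes of the shade list, 6 of 16 were higher and 1 lower in all 3 groups, and none was at least 2-fold in each. EXPA8, an expansin, had 23.4 CPM in library 2 against 13.2 CPM in library 1 for FLV border, 49.2 against 14.7 for WT border, and 528 against 21.1 for WT center, and its ratio was largest in WT center.

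Genes of sugar starvation were mostly higher in library 2. Of 17 tested, 10 were higher in all 3 groups and 1 lower, 3 and 1 of them at least 2-fold in each, with a median log2 difference of 1.1; BGLU30 was not tested. None passed edgeR, 8 had an unadjusted p under 0.05, and DESeq2 called 3 higher and 1 lower. KMD1 (AT1G80440), an F-box protein that targets type-B response regulators of cytokinin, had 13.7 (FLV border), 13.6 (WT border) and 108 CPM (WT center) in library 2, against 2.2, 1.78 and 13.9 CPM in library 1 of the same groups. TPS11 (AT2G18700), a class II trehalose phosphate synthase protein, had 27.2 CPM in library 2 against 11.4 CPM in library 1 for FLV border, 41.6 against 7.83 for WT border, and 51.2 against 6.22 for WT center. The gene AT3G15450, annotated as an aluminum induced protein, had 53.1 (FLV border), 99.7 (WT border) and 374 CPM (WT center) in library 2, against 12.1, 38.3 and 55.2 CPM in library 1 of the same groups. BZIP11 (AT4G34590), a bZIP factor whose translation sucrose represses, was the exception, with 1.25 CPM in library 2 against 4.0 CPM in library 1 for FLV border, 2.81 against 12.2 for WT border, and 2.61 against 6.4 for WT center. For these 4 genes the log2 differences were 2.84 ± 0.35, 2.23 ± 0.45, 2.09 ± 0.43 and -1.7 ± 0.40, with adjusted p of 0.118, 0.285, 0.293 and 0.394 by edgeR.

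The starch list had no shared direction, with 5 of 21 genes higher and 5 lower in all 3 groups and a median of -0.00117. GBSS1 (AT1G32900), the starch synthase that makes amylose and a known target of CCA1 and LHY, had 8.92 (FLV border), 14.6 (WT border) and 2.47 CPM (WT center) in library 2, against 0.939, 3.44 and 0.267 CPM in library 1 of the same groups. It was higher in every library 2 within its group, by log2 2.77 ± 0.46 (edgeR adjusted p 0.197). BAM3 (AT4G17090), a beta-amylase of night-time starch breakdown, had 34.2 CPM in library 2 against 44.5 CPM in library 1 for FLV border, 40 against 118 for WT border, and 23.2 against 94.9 for WT center, lower in library 2 of each group, with a log2 difference of -1.33 ± 0.44 in the fit. Of the nitrate list 4 of 16 genes were higher and none was lower in all 3 groups, and none was at least 2-fold.

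Genes of jasmonate synthesis and response were mostly lower in library 2. Of 18, 12 were lower in all 3 groups and 1 higher, and 6 were at least 2-fold lower in each. The median log2 difference was -1.56, none passed edgeR, 11 had an unadjusted p under 0.05 and DESeq2 called 7 lower. LOX3 (AT1G17420), a lipoxygenase at the head of the pathway, had 12.8 (FLV border), 12.9 (WT border) and 12.1 CPM (WT center) in library 2, against 88.7, 40.9 and 57.4 CPM in library 1 of the same groups. OPR3 (AT2G06050), a reductase of the same pathway, had 10.09 CPM in library 2 against 36 CPM in library 1 for FLV border, 10.2 against 37.9 for WT border, and 32.8 against 93 for WT center. JAZ5 (AT1G17380), a repressor that jasmonate both removes and induces, had 0.93 (FLV border), 0.382 (WT border) and 0.962 CPM (WT center) in library 2, against 6.39, 2.29 and 13.4 CPM in library 1 of the same groups. LOX3 lay at 12.1 to 12.9 CPM in the libraries numbered 2, and the lowest library 1 was at 40.9 CPM. CORI3 (AT4G23600), a transaminase gene induced by coronatine, had 0.95 CPM in library 2 against 6.57 CPM in library 1 for FLV border, 3.75 against 17.7 for WT border, and 53.2 against 249 for WT center, a ratio shared by groups of very different level. Log2 differences of these 4 were -2.23 ± 0.39, -1.74 ± 0.34, -3.04 ± 0.48 and -2.41 ± 0.37, with adjusted p of 0.209, 0.275, 0.169 and 0.169 by edgeR.

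Genes of touch and wounding followed. Of 19, 9 were lower in all 3 groups and none was higher, none was at least 2-fold lower in each, and the median log2 difference was -1.13. None passed edgeR, 10 had an unadjusted p under 0.05 and DESeq2 called 1 lower. ERF5 (AT5G47230), an ethylene-response factor of early stress, had 3.15 (FLV border), 6.64 (WT border) and 117 CPM (WT center) in library 2, against 45.3, 26.1 and 228 CPM in library 1 of the same groups. ERF11 (AT1G28370), a repressor of the same family, had 3.03 CPM in library 2 against 37.6 CPM in library 1 for FLV border, 6.05 against 11.9 for WT border, and 40.5 against 80 for WT center. For both genes the ratio was largest in FLV border. The median log2 ratio of the list was -2.27 in FLV border, -0.36 in WT border and -0.64 in WT center. RRTF1 (AT4G34410), a redox-responsive factor outside the list, had 1.76 (FLV border), 0.243 (WT border) and 0.756 CPM (WT center) in library 2, against 35.8, 7.6 and 9.68 CPM in library 1 of the same groups. It was lower in library 2 of every group, with a log2 difference of -4.31 ± 0.44 (edgeR adjusted p 0.0947). In the salicylate list 5 of 14 tested genes were lower in all 3 groups, none was higher, and DESeq2 called none.

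Of the flavonoid genes, 9 of 17 tested were lower in all 3 groups and 2 higher, with a median log2 difference of -1.48. The median log2 ratio of the list was -1.10 in FLV border and -0.68 in WT border, but only -0.12 in WT center. At least 2-fold lower in each were 2, none passed edgeR, 10 had an unadjusted p under 0.05 and DESeq2 called 3 lower; LDOX and MYB11 were not tested. CHS (AT5G13930), the first enzyme of the pathway, had 62.2 CPM in library 2 against 472 CPM in library 1 for FLV border, 59.2 against 172 for WT border, and 14.5 against 30.7 for WT center. 4CL3 (AT1G65060), a ligase that feeds it, had 5.01 (FLV border), 7.37 (WT border) and 2.47 CPM (WT center) in library 2, against 21.5, 22.8 and 7.29 CPM in library 1 of the same groups. CHIL (AT5G05270), a chalcone isomerase-like protein outside the list, had 10.09 CPM in library 2 against 45.8 CPM in library 1 for FLV border, 6.29 against 25.6 for WT border, and 1.58 against 8.97 for WT center. Each was lower in library 2 within every group, with log2 differences of -1.84 ± 0.49, -1.77 ± 0.35 and -2.22 ± 0.34 (edgeR adjusted p 0.472, 0.28 and 0.169). MYBL2 (AT1G71030), a repressor of flavonoid genes, went the other way with 15.5 (FLV border), 27.2 (WT border) and 53.3 CPM (WT center) in library 2, against 0.612, 2.35 and 3.46 CPM in library 1 of the same groups, log2 4.03 ± 0.41 (edgeR adjusted p 0.0947). No library 1 of MYBL2 reached a library 2.

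**Figure D4:**
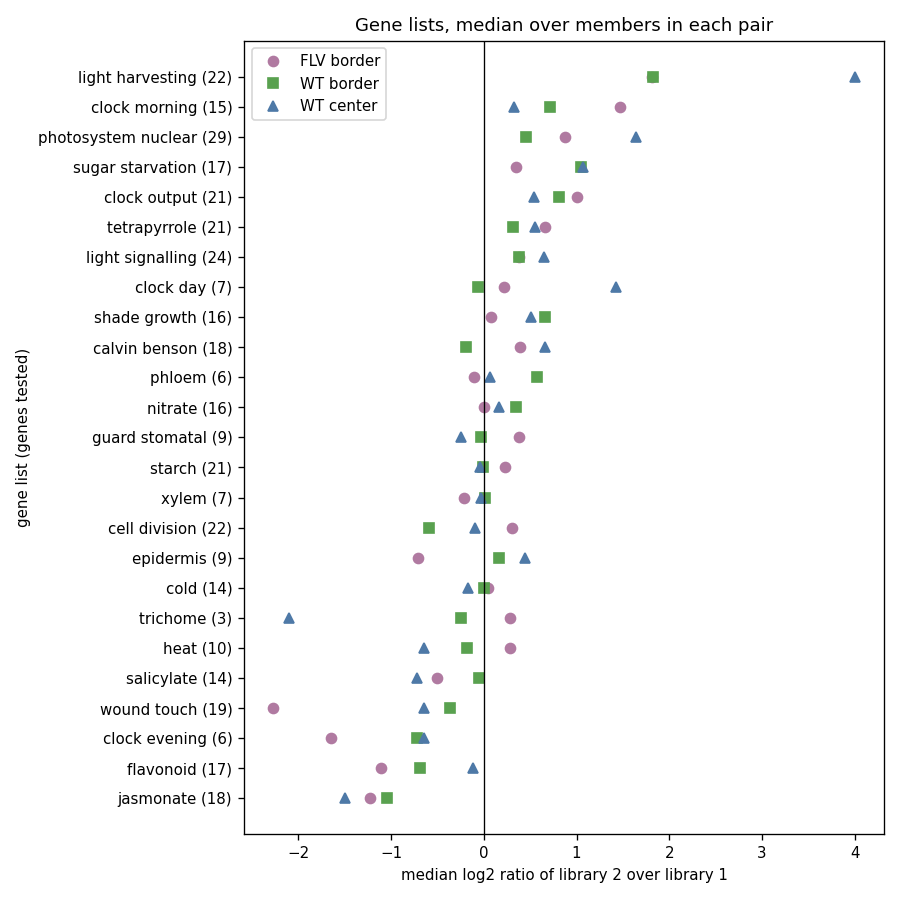
Median log2 ratio of library 2 over library 1 over the tested members of each of 25 gene lists, with 1 symbol per group and the number of genes tested in brackets. Light harvesting, at the top, is right of 0 in all groups, and jasmonate, flavonoid, evening and wounding genes, at the bottom, are left of 0 in all groups.

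Several genes outside the lists differed by several fold in every group as well. CIPK20 (AT5G45820), a protein kinase that works with calcium sensors, had 8.8 CPM in library 2 against 0.0408 CPM in library 1 for FLV border, 24.7 against 0.143 for WT border, and 10.2 against 0.267 for WT center. Its libraries numbered 1 held 2, 5 and 3 counts, so the size of its log2 difference, 6.87 ± 0.63, depends on those few reads (edgeR adjusted p 0.0848). ABA1 (AT5G67030), the zeaxanthin epoxidase of abscisic acid and xanthophyll synthesis, had 86 (FLV border), 76 (WT border) and 41.5 CPM (WT center) in library 2, against 13.8, 15.5 and 9.86 CPM in library 1 of the same groups, higher by log2 2.34 ± 0.36 in library 2. BT2 (AT3G48360), a BTB and TAZ domain protein that responds to nitrate and sugar, had 11 CPM in library 2 against 71 CPM in library 1 for FLV border, 36 against 174 for WT border, and 137 against 861 for WT center, a log2 difference of -2.54 ± 0.40. The gene AT1G06000, annotated as a UDP-glycosyltransferase, had 14.3 (FLV border), 17.5 (WT border) and 18.1 CPM (WT center) in library 2, against 80.4, 81.1 and 76.8 CPM in library 1 of the same groups. It overlaps a long non-coding RNA, and whether counting used the strand is not given in the sources used here, so its reads may include those of the other gene. The gene AT1G61890, annotated as a MATE efflux protein, had 12.3 CPM in library 2 against 77 CPM in library 1 for FLV border, 13.3 against 62.5 for WT border, and 11.8 against 115 for WT center. Both were lower in library 2 of every group, with log2 differences of -2.26 ± 0.35 and -2.72 ± 0.39. Of the named genes with the smallest p, a thionin gene, AT1G66100, and AT5G59080, an uncharacterized protein, had log2 differences of 3.46 ± 0.47 and 2.86 ± 0.39, and AT4G27657, another uncharacterized protein, one of -2.22 ± 0.36.

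How far the difference between the numbers was shared varied between groups. In FLV border 629 genes were at least 2-fold higher and 935 lower in library 2, in WT border 924 and 891, and in WT center 2694 and 3032. The SD of the log2 ratio over genes was 0.577, 0.598 and 0.988 in the same order. These values are not on a like basis. TMM factors were 0.439 and 0.551 in libraries 2 and 1 of WT center, against 1.14 to 1.73 in the border libraries. The 1 CPM added before taking log2 therefore stood for fewer reads in WT center. Library 1 of WT center also had 17.3% short RNA, and the part of either in the spread was not tested. Across 21852 genes the ratios of FLV border and WT border correlated with Pearson r = 0.458 (Spearman rho 0.398), those of FLV border and WT center with r = 0.0566 (rho -0.0236), and those of WT border and WT center with r = 0.110 (rho 0.0179). Genes are not independent replicates, and no p is given. Among 10824 genes of at least 5 CPM on average, Pearson r was 0.519, 0.0747 and 0.143. Of the 2694 genes at least 2-fold higher in library 2 of WT center, 108 were so in both borders too, and of the 3032 lower ones 81 were.

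**Figure D5:**
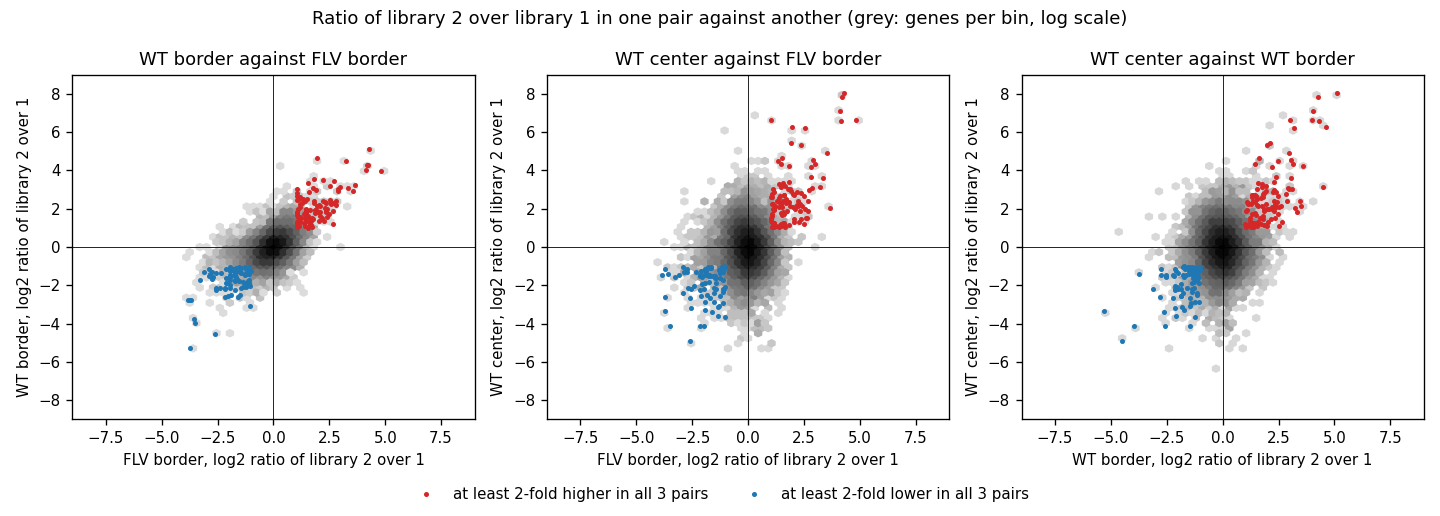
Log2 ratio of library 2 over library 1 in a group against that in another group, for 21852 genes (grey, genes per bin on a log scale), with the 108 genes at least 2-fold higher in all 3 groups in red and the 81 at least 2-fold lower in blue. The grey cloud is tilted in the left panel (r = 0.458) and close to upright in the middle panel (r = 0.0566), and the coloured points lie in opposite corners by construction.

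Marker genes of cell types that leaf pieces could hold in unequal amounts were set beside the values above. Of the 6 phloem markers 1 was higher in all 3 groups and none lower, of the 7 xylem markers none in either direction, and of the 9 guard cell and stomatal markers 1 was higher and 3 were lower. Of the 9 epidermal markers 2 were higher and 2 lower, of 3 tested trichome markers none was higher and 1 lower, and of the 22 dividing-cell genes 3 were higher and 4 lower. Over all genes tested, 15% were higher and 15.4% lower in library 2 in all 3 groups. The marker lists are short, and a departure from these shares was not tested. None of these markers was at least 2-fold in all 3 groups. SUC2, the sucrose loader of phloem companion cells, had 73.3 (FLV border), 178 (WT border) and 171 CPM (WT center) in library 2, against 72.3, 87.1 and 81.6 CPM in library 1 of the same groups, and CER1, a wax enzyme of the epidermis, had 19.7 CPM in library 2 against 32.8 CPM in library 1 for FLV border, 4.31 against 33.1 for WT border, and 2.68 against 6.93 for WT center. The phloem markers summed to 152 (FLV border), 290.5 (WT border) and 233 CPM (WT center) in library 2, against 160.0, 162 and 155 CPM in library 1 of the same groups. SUC2 made up the largest part of these sums. The median log2 ratio of the phloem markers was -0.102 in FLV border, 0.576 in WT border and 0.0693 in WT center. The epidermal markers summed to 725 CPM in library 2 against 1100.3 CPM in library 1 for FLV border, 572 against 738 for WT border, and 1157 against 849.6 for WT center, so that the direction in the borders and in WT center was opposite. The xylem markers summed to 56.3 (FLV border), 57.6 (WT border) and 20.5 CPM (WT center) in library 2, against 64.2, 55.1 and 32.1 CPM in library 1 of the same groups. Guard cell and stomatal markers summed to 51.9 CPM in library 2 against 56 CPM in library 1 for FLV border, 53.7 against 63.6 for WT border, and 10.8 against 21.9 for WT center. These sums were lower in library 2 of every group, but the median log2 ratio of the markers was 0.376 in FLV border, -0.0336 in WT border and -0.245 in WT center. The trichome markers summed to 40.3 (FLV border), 44.6 (WT border) and 31.7 CPM (WT center) in library 2, against 48, 53.8 and 93.7 CPM in library 1 of the same groups. These sums were also lower in library 2 of every group, but GL2 made up the largest part of them. TRY and TTG1 were higher in library 2 of FLV border, where the median log2 ratio of the trichome markers was 0.279. Dividing-cell genes summed to 198 CPM in library 2 against 200.3 CPM in library 1 for FLV border, 185 against 261 for WT border, and 57.2 against 79.5 for WT center. The trichome factor GL1 was not tested for low counts. The part of cell types in the results above was not tested.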

How the data were processed

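The deposited tables give raw read counts per gene model for each of the 6 libraries, from rRNA-depleted RNA sequenced as stranded single-end reads on an Ion Proton, per the labels' protocols. Per the file headers the counts were written by a program named sam2pkm, and they sum to the header's mapped reads; per the submitters' processing notes the build was TAIR10. The aligner and the use of strand in counting are not given in the sources used here. Of 33602 gene models, 32835 are in the reference table (RefSeq, TAIR10.1), which gave names and promoters. After leaving out 15 rRNA loci, edgeR 4.0.16 (R 4.3.3) filterByExpr kept 21852 genes: 21587 nuclear, 125 plastid and 140 mitochondrial. A quasi-likelihood fit (TMM, robust) tested library number with group as a block, two-sided, with Benjamini-Hochberg adjustment over all genes and a threshold of 0.05. DESeq2 1.42.0 and limma-voom (limma 3.58.1) were alternatives. DESeq2 gave no adjusted p for 4237 genes. A ratio within a group was taken from log2(CPM + 1). With 3 groups the smallest exact two-sided sign-permutation p is 0.25, so no test over groups is given for single genes.

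The comparison, its lists (394 members, of which 15 names are not those of the reference) and the named genes were chosen with earlier results of these data known. Named genes are DOT4, the morning, day and evening clock lists, in each direction up to 10 protein-coding genes by smallest p among those of at least 5 mean CPM and at least 2-fold that way in every group, and up to 4 members by smallest p of each other list. With few libraries per number, the precision is that of the spread between them.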

Additional observations from a re-analysis of the deposited data

Results flagged for a closer look

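In 4 named genes library 2 was at least 2-fold higher than library 1 in 1 group and at least 2-fold lower in another. CBF2, a cold-response activator, had 11.5 CPM in library 2 against 25.2 CPM in library 1 for FLV border, 15.1 against 2.72 for WT border, and 159.8 against 1.16 for WT center. Its log2 ratio was -1.07 in FLV border, 2.11 in WT border and 6.22 in WT center, a span of 7.29. RVE1 had log2 ratios of 1.34 in FLV border, -0.26 in WT border and -2.01 in WT center, a span of 3.35. RVE8 had 1.47 in FLV border, 0.45 in WT border and -1.16 in WT center, a span of 2.63, and FKF1 had -0.95 in FLV border, -1.31 in WT border and 1.01 in WT center, a span of 2.32. With 1 library of each number in a group, the difference between groups was not tested.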

How the results depend on the processing

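Main counts of 0 genes called higher and 0 lower by edgeR moved under some settings. Without a filter on low counts 49 were called higher and 30 lower, and with DESeq2 182 and 175. Leaving out the libraries of a group in turn gave 4 to 75 higher and 5 to 65 lower: 75 and 32 without FLV border, 4 and 5 without WT border, and 69 and 65 without WT center. In the fits with a group left out, in the same order, 59 of 107, 8 of 9 and 81 of 134 called genes were also at least 2-fold the same way in all 3 groups. The 2-fold rule scores the same libraries that gave these calls, so much of this overlap is built in and is no separate support. Over all genes tested, 0.494% were at least 2-fold higher and 0.371% at least 2-fold lower in every group. RLE scaling, library totals, TMM from nuclear genes, a filter by library number, rRNA loci kept, short RNA loci left out, robust=FALSE, limma-voom and a gene length offset called 0 in both directions. The fit with no replicate block, that is with no term for the group, also called 0. The group is the block of the main fit, and across genes the ratios of the groups correlated at r = 0.458 (both borders), 0.0566 (FLV border and WT center) and 0.110 (WT border and WT center). Both combinations with WT center were thus low, with Spearman rho of -0.0236 and 0.0179. The fit took the number as a term shared by the groups, although the labels do not say whether it stands for a shared harvest or batch. Library totals shifted the median log2 difference of all genes to -0.129.

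The 108 genes at least 2-fold higher in every group became 177 to 260 with 1 group left out, 58 with a prior of 5 CPM, 316 at 1.5-fold and 22 at 4-fold. The 81 lower genes became 207 to 262, 36, 342 and 9 under the same settings.

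Log2 differences of 12 named genes changed sign when the libraries of a group were left out. The lowest and highest values were -1.17 and 0.0745 for FKF1, -0.154 and 0.851 for LKP2, -0.364 and 0.0798 for ELF3, -0.0578 and 0.987 for AT5G52660, -0.626 and 1.7 for RVE8, -1.17 and 0.608 for RVE4, and -1.34 and 0.778 for RVE1. They were -0.152 and 0.0917 for LWD1, -1.77 and 1.05 for TRY, -0.045 and 0.292 for TTG1, -0.783 and 0.0888 for XCP2, and -0.424 and 0.225 for LAC4. With library totals TTG1 was at -0.0825. The cause was not tested. The list medians that changed sign were those of starch, guard cell, epidermal and cell division genes. A planned comparison with another count column was not run, since the tables hold 1 kind of count.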

Other observations

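Cold genes had no shared direction. Of 14 cold-list genes, 4 were higher and 2 lower in library 2 in all 3 groups, none was at least 2-fold in each, and DESeq2 called 1 higher. CBF3, a cold-response activator whose tandem copies share reads with it, had 5.54 (FLV border), 3.58 (WT border) and 46.4 CPM (WT center) in library 2, against 3.12, 0.459 and 1.16 CPM in library 1 of the same groups. KIN2, a cold-induced gene, had 7.22 CPM in library 2 against 6.69 CPM in library 1 for FLV border, 15 against 45.2 for WT border, and 252 against 736 for WT center, so that it was near level in FLV border and lower in library 2 of both WT groups. GOLS3, a galactinol synthase, had 0.404 (FLV border), 1.18 (WT border) and 1.99 CPM (WT center) in library 2, against 0.0612, 0 and 0.0888 CPM in library 1 of the same groups.

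Heat genes were sparse, and 10 of 15 passed the filter on low counts. Of these, 2 were higher and 4 lower in library 2 in all 3 groups, and none was at least 2-fold in each. HSFA2, a heat-shock factor, had 0.222 CPM in library 2 against 1.02 CPM in library 1 for FLV border, 0.139 against 0.602 for WT border, and 0.206 against 0.533 for WT center. ROF2, a heat-induced immunophilin, had 4.55 (FLV border), 1.11 (WT border) and 2.27 CPM (WT center) in library 2, against 1.24, 0.602 and 0.8 CPM in library 1 of the same groups. The genes of the nitrate list with the smallest p, NIA1, a nitrate reductase, and LBD37, a repressor of nitrogen genes, differed by log2 1.05 ± 0.45 and 0.71 ± 0.36. Mitochondrial genes had a median log2 ratio of -0.12 in FLV border, -0.00418 in WT border and -0.60 in WT center. Of the 140, 6 were higher and 37 lower in all 3 groups, against 15% higher and 15.4% lower over all genes tested.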
